A study of Homo sapiens with 28 samples.

Results

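The response of A498 tumours to continued sorafenib was set against that of 786-O tumours, gene by gene, as (A498 resistant minus A498 untreated) minus (786-O resistant minus 786-O untreated). The comparison used 19 of the 28 arrays of the study: 5 untreated and 5 resistant 786-O tumours and 4 untreated and 5 resistant A498 tumours, all of the sorafenib arms. A498 and 786-O are established human clear cell renal carcinoma lines, each a single line that has lost VHL. Both were grown under the flank skin of female athymic nude/beige mice that were 6 to 8 weeks old at injection. Mice of both lines received sorafenib, 80 mg/kg by gavage on 6 of 7 days per week, once tumours measured 12 mm across. Excision was at 12 mm or at the 20 mm limit, and the labels do not say which size each untreated tumour had. "Resistant" is the label of the tumours on drug, and the untreated tumours of each line were its own controls. Whether any tumours shared a mouse is not stated, and p-values therefore cover the spread among these tumours, some of which may be technical. The remaining 9 arrays were 5 untreated and 4 resistant 786-O tumours of a sunitinib arm (53.6 mg/kg), given beside some results. Their values are not part of the difference, but they entered the estimate of the spread and the choice of genes tested and probe sets.

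Sorafenib inhibits RAF kinases and several receptor tyrosine kinases, among them those for VEGF and PDGF, and acts on tumour vessels as well as on tumour cells. Loss of VHL stabilises the hypoxia-inducible factors, so genes of glycolysis, angiogenesis and lipid storage are active in VHL-deficient cells. ERK, the kinase downstream of RAF, drives its own feedback genes (dual-specificity phosphatases, Sprouty and SPRED proteins) and the ETS factors ETV1, ETV4 and ETV5, which serve as readouts of the pathway. Grafts in mice also hold murine fibroblasts, vessels and macrophages, whose RNA can bind to some human probes.

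Signals are the linear values of Affymetrix HG-U133 Plus 2.0 probe sets, with 1 probe set per gene, and differences are in log2(signal + 16), where dim genes change less than their true fold. A value after ± is a standard error, adjusted p-values come from limma with Benjamini-Hochberg adjustment over all 13808 genes tested, and a gene was called at an adjusted p under 0.05. Values of single tumours are given in replicate order. A positive difference between lines means that the response of A498 was the more positive. Every array had a trimmed mean near 500, and medians ran from 79.7 to 99.4. Within a group, arrays correlated at 0.949 to 0.971. The renal markers PAX8, KRT8, KRT18, VIM and EPAS1 were above the filter limit of 89.4 on all 19 arrays, and PAX2 on all but 1 resistant 786-O array. The 3-prime minus 5-prime signal of GAPDH, a sign of RNA quality, differed between resistant and untreated tumours by 0.0493 in A498 (p = 0.214) and 0.00584 in 786-O (p = 0.960, two-sided exact permutation tests, smallest possible p 0.00794). The ACTB version differed by 0.00899 (p = 0.833) and -0.00401 (p = 0.984, same exact tests), but 786-O untreated replicate 5 (1.03) and 786-O resistant replicate 4 (0.674) stood above the others in it. The titles of the 786-O sorafenib arm carry another leading code than those of A498, with no stated meaning. Each line's contrast lies within 1 code, so code and line cannot be told apart in the difference.

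Of the 13808 genes, 716 (5.19%) had a called difference between lines, 417 above 0 (3.02%) and 299 below 0 (2.17%). At an unadjusted p under 0.05 there were 2847, and 311 called differences were at least 1 on the log2 scale (2.25%). Within the lines, 875 genes (6.34%) were called in A498, 405 up and 470 down, and 2092 (15.2%) in 786-O, 825 up and 1267 down. Of these, 279 were called in both, 104 up in both, 151 down in both and 24 in opposite directions. The same-sign overlap was 29.1% of the A498 calls and 12.2% of the 786-O calls. Across genes, which are not independent replicates, the 2 responses correlated at r = 0.22 (Spearman rho 0.19), and 55.8% of genes had the same sign in both. Resistant and untreated tumours did not overlap for 9.14% of genes in A498 and 12.5% in 786-O. The spread of the responses was 0.35 (SD over genes) in A498 and 0.43 in 786-O.

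**Figure D1:**
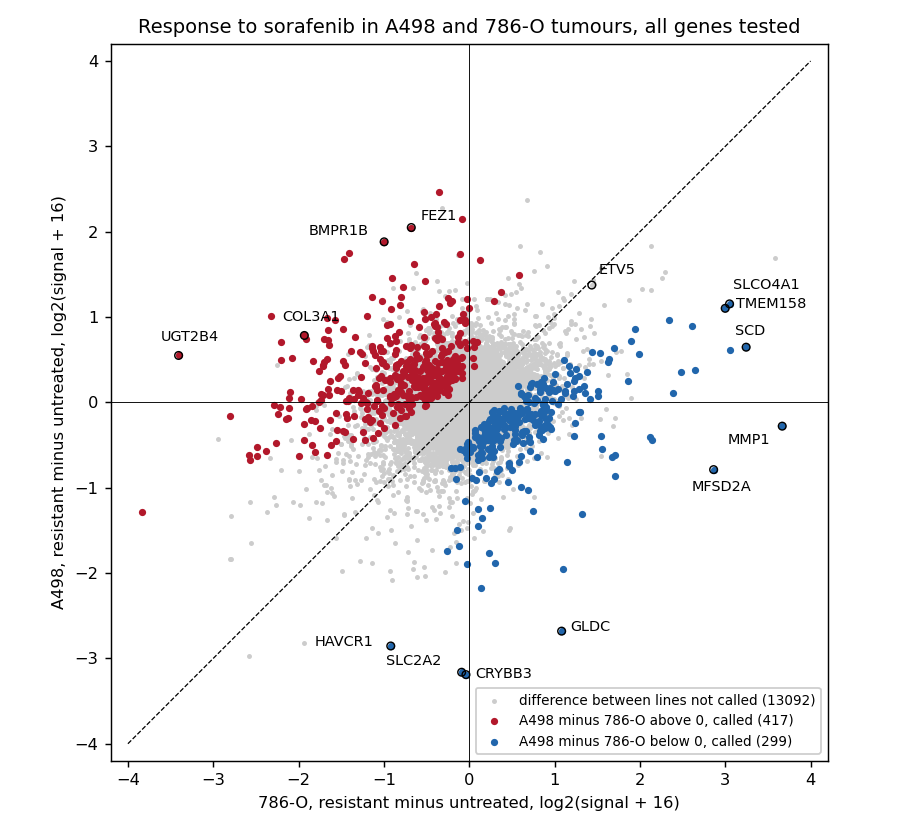
Resistant minus untreated in 786-O (horizontal) and A498 (vertical), log2(signal + 16), with 1 point per gene for 13808 genes. Grey points had no called difference between lines, red points are the 417 with a positive and blue points the 299 with a negative called difference, and the dashed line marks equal responses. MMP1 and SCD lie far right near the horizontal axis, UGT2B4 far left, CRYBB3 and SLC2A2 far down near the vertical axis, and ETV5 on the diagonal.

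The split by direction depended on the scaling. With each array centred on its median instead of the deposited scale, 905 differences were called, 191 above and 714 below 0, so that 21.1% were positive instead of 58.2%. Centring moved the median difference of all genes from 0.07 to -0.12, and 490 of the 716 genes remained called. With quantile normalisation, 728 were called, 416 above and 312 below 0. The number of calls in A498 was 465 without A498 untreated replicate 1, 580 without untreated replicate 4 and 569 without resistant replicate 3. Without the 2 arrays of high ACTB difference, 458 differences and 1234 genes in 786-O were called.

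By class, most of the called differences came from genes called in 786-O alone. Here and below, "only" means called in that line and not in the other, where the gene may still have moved. There were 281 genes (39.2% of the 716) that fell in 786-O only and 179 (25.0%) that rose in 786-O only. In A498 only, 77 (10.8%) fell and 83 (11.6%) rose. Another 61 were called in neither line although their difference was. The opposite class held 24 genes and the class of the same sign but unequal size 11, 8 larger in 786-O and 3 larger in A498. Of the 716, 73 (10.2%) were dim in A498 and 35 (4.89%) dim in 786-O, beside 11.8% and 12.6% of all genes tested. Dim means that both group means of that line lay below the filter limit, so a response there was hard to measure. Median centring gave 141 falls and 370 rises in 786-O only and 216 falls and 25 rises in A498 only.

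The named genes that rose in 786-O only included MMP1, SCD, MFSD2A, GJB2 and PTGES. MMP1, interstitial collagenase, had the most negative difference between lines of the called genes. Its signals were 149, 85.3, 43.3, 41.6 and 139 in untreated and 611, 2438, 1109.6, 994 and 1665 in resistant 786-O tumours. In A498 they were 11.4, 3.71, 46.3 and 3.77 untreated and 23.9, 5.66, 4.03, 3.26 and 5.73 resistant. All resistant 786-O tumours lay above all untreated ones, and every A498 tumour lay below the filter limit. MMP1 rose by 3.67 ± 0.49 in 786-O (limma adjusted p = 9.39e-06), and the difference between lines was -3.95 ± 0.71 (limma adjusted p = 0.00199), with its size in A498 uncertain because the gene was dim there.

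SCD encodes stearoyl-CoA desaturase, which makes monounsaturated fatty acids. SCD read 634, 388, 312, 194 and 269 in untreated 786-O tumours and 1904, 2556, 3247, 5022 and 4841 in resistant ones, with no overlap. A498 tumours read 7715, 6384, 5985 and 7709 untreated and 8929.7, 12407, 11604, 11153 and 10337 resistant, also with no overlap. Untreated A498 tumours were already above every resistant 786-O tumour. The rise was 3.24 ± 0.34 in 786-O, and the A498 change of 0.65 ± 0.36 was not called (limma adjusted p = 0.311). The difference between lines was -2.60 ± 0.49 (limma adjusted p = 0.00281), and -1.52 (adjusted p = 0.0340) with the mean of the gene's probe sets. MFSD2A, a transporter of lysophosphatidylcholine, read 115, 19.3, 70.9, 16.5 and 24.3 untreated and 429.8, 362, 505, 329.7 and 339 resistant in 786-O. In A498 it read 268, 132.6, 165 and 176 untreated and 122, 19.7, 127, 128 and 169 resistant, where the groups overlapped and resistant replicate 2 was far below the others. Its difference between lines was -3.65 ± 0.54 (limma adjusted p = 0.000355), and -1.80 (adjusted p = 0.00233) with the mean of its probe sets. Untreated 786-O tumours lay below the untreated A498 tumours, and resistant 786-O tumours lay above all A498 tumours. G0S2, an inhibitor of triglyceride lipase, rose by 1.86 ± 0.21 in 786-O with an A498 change of 0.25 ± 0.22 that was not called.

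GJB2 encodes connexin 26. Its signals were 5264, 1991, 2033, 1946 and 2129 in untreated and 11851, 9797, 12428, 14647 and 7143 in resistant 786-O tumours. A498 tumours read 6850.0, 7428, 8206 and 7338 untreated and 4313, 4504, 7762, 7343 and 4535 resistant, with overlap. The groups of 786-O did not overlap, and untreated replicate 1 was the nearest to the resistant range. GJB2 rose by 2.14 ± 0.30 in 786-O, with a difference between lines of -2.58 ± 0.44 (limma adjusted p = 0.00114). PTGES, the synthase that makes prostaglandin E, read 916, 957, 802, 1033 and 785.8 untreated and 3009.7, 2988, 2355, 2290.1 and 2746 resistant in 786-O. In A498 it read 1816, 1454, 1515 and 2024 untreated and 1448, 1404, 813, 1029 and 1166 resistant. The groups of neither line overlapped, and they were ordered oppositely. PTGES rose by 1.56 ± 0.17 in 786-O (limma adjusted p = 7.15e-07), while the A498 change of -0.55 ± 0.18 missed the threshold (limma adjusted p = 0.0677). Under median centring PTGES was also called in A498, at -0.65 (limma adjusted p = 0.0335), so that it joined the opposite class there.

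BDKRB2, the bradykinin receptor, rose by 1.71 ± 0.33 in 786-O against -0.86 ± 0.35 in A498, with a difference between lines of -2.57 ± 0.49 (limma adjusted p = 0.00289). ANGPTL4, a secreted inhibitor of lipoprotein lipase and a HIF target, read 1229, 1076, 629, 638 and 901 in untreated and 4269.9, 7509, 7370.2, 4852 and 4377 in resistant 786-O tumours. In A498 it read 9277, 6828, 2847 and 6205 untreated and 7668, 10704, 6453, 5659 and 8014 resistant. The 786-O groups were apart and the A498 groups mixed. The ANGPTL4 difference between lines was -2.27 ± 0.48 (limma adjusted p = 0.00713). TNFSF15, a TNF family cytokine, was called up in 786-O at 1.33 ± 0.39 from levels under the filter limit, with overlap, and its A498 change was -1.30 ± 0.41 (limma adjusted p = 0.0600). The TNFSF15 difference was -2.63 ± 0.57 (limma adjusted p = 0.00858), -1.72 with a pseudocount of 64 and -1.51 (adjusted p = 0.0598) with the mean of its probe sets. Under median centring and quantile normalisation its A498 change was called too (-1.40 and -1.36, adjusted p = 0.0338 and 0.0419), which put it in the opposite class.

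The named genes that fell in 786-O only included the enzymes UGT2B4, ACSM2A, AKR1C3 and PTGDS and the matrix proteins THBS4 and COL3A1. UGT2B4, a glucuronosyltransferase, had the most positive difference between lines of the called genes. It read 998, 884, 948, 1452 and 838 in untreated and 104, 87.0, 121, 13.0 and 152 in resistant 786-O tumours. In A498 it read 10.2, 4.03, 1.11 and 1.98 untreated and 3.43, 20.6, 30.0, 3.18 and 18.7 resistant, all below the filter limit. UGT2B4 fell by 3.41 ± 0.35 in 786-O and its difference between lines was 3.96 ± 0.51 (limma adjusted p = 8.29e-05). A gene that is dim in both groups of a line cannot show a fall there, and probes of close UGT2B family members may share signal. ACSM2A, a mitochondrial acyl-CoA synthetase with a near-identical neighbour, fell by 3.83 ± 0.47 in 786-O. Its signals there were 1381, 714, 1179.9, 621 and 509.8 untreated and 66.3, 126, 147, 2.30 and 4.09 resistant. A498 tumours read 2869, 1708, 2368 and 2313 untreated and 1057, 672, 793, 992 and 1227 resistant, without overlap, but the change of -1.28 ± 0.49 was not called. The ACSM2A difference of 2.55 ± 0.68 (limma adjusted p = 0.0280) missed the threshold without 786-O untreated replicate 1 (2.36, adjusted p = 0.0504) and without A498 untreated replicate 2 (2.41, adjusted p = 0.0583), and was 1.66 with a pseudocount of 64.

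AKR1C3 is an aldo-keto reductase that acts on steroids and prostaglandins and is a target of NRF2. It read 7215, 5502, 6423, 6326 and 8234 in untreated and 2246, 1729, 1757, 521 and 1272 in resistant 786-O tumours. A498 tumours read 20092, 18933, 15586 and 18821 untreated and 17386, 18412, 18126, 17051 and 18713 resistant. AKR1C3 fell by 2.29 ± 0.26 in 786-O with no overlap, while the resistant A498 tumours lay within the untreated range, and the difference between lines was 2.26 ± 0.37 (limma adjusted p = 0.000957). AKR1C2, a close paralog, had a difference of 1.65 ± 0.30, and PIR, an iron-binding redox protein, of 1.46 ± 0.25. Probes of the AKR1C genes may share signal with each other. Of 23 tested genes of the oxidative stress and NRF2 list, 7 had a positive and 0 a negative called difference, where 3.02% of all genes had a positive one. In 786-O, 10 fell and 0 rose, where 9.18% of all genes fell. The list's median difference was 0.29, beside 0.07 over all genes. Besides the 3 named, the called ones were AKR1C1, AKR1B10, NQO1 and GCLM, chosen for naming after their values were seen. NQO1, a quinone reductase, changed by -0.99 ± 0.11 in 786-O and -0.06 ± 0.12 in A498. ALDH1A1, retinaldehyde dehydrogenase, fell by 2.13 ± 0.33 in 786-O, with a difference of 1.94 ± 0.48 (limma adjusted p = 0.0188).

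PTGDS makes prostaglandin D. It read 12551, 3686, 4530.2, 2735 and 2524 in untreated and 1397, 1265, 1643, 518 and 417 in resistant 786-O tumours. A498 tumours read 283, 89.4, 130.4 and 225 untreated and 228, 254, 171, 248 and 334 resistant, with overlap and at a far lower level. PTGDS fell by 2.21 ± 0.39 in 786-O, and the difference between lines was 2.71 ± 0.57 (limma adjusted p = 0.00714). So PTGES rose and PTGDS fell in 786-O, and neither was called in A498. THBS4, a matricellular thrombospondin, fell by 2.21 ± 0.39 in 786-O and its A498 change of 0.71 ± 0.41 was not called. FGFR4, a receptor for endocrine fibroblast growth factors, fell by 1.43 ± 0.20 in 786-O and stood at 0.01 ± 0.21 in A498, a difference of 1.44 ± 0.29 (limma adjusted p = 0.00480). FGFR2, another receptor of the family, had a difference of 1.69 ± 0.50 (limma adjusted p = 0.0499) on its main probe set, which turned to -0.27 (adjusted p = 0.674) when probe sets that may bind several transcripts were left out. Its call also ended without any 1 of 16 arrays (adjusted p up to 0.105).

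The named genes that fell in A498 only included GLDC, CRYBB3, SLC2A2, SLC39A5, GLYAT and TFPI2. GLDC, the glycine cleavage enzyme of mitochondria, read 2846, 1356, 1068 and 2454 in untreated and 418, 137, 134, 429 and 379.7 in resistant A498 tumours. Signals in 786-O were 190.3, 37.2, 87.1, 21.5 and 26.1 untreated and 82.5, 131, 217, 263 and 64.8 resistant. Resistant A498 tumours lay wholly below untreated ones, and the 786-O groups overlapped around the filter limit. GLDC fell by 2.68 ± 0.69 in A498 (limma adjusted p = 0.0193), and the difference between lines was -3.76 ± 0.94 (limma adjusted p = 0.0198). Without the 2 arrays of high ACTB difference it was -3.35 and missed the threshold (adjusted p = 0.067).

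CRYBB3, a beta crystallin, went from 555, 109, 204 and 162 in untreated to 5.50, 9.0, 5.98, 14.4 and 12.4 in resistant A498 tumours. The 786-O tumours read 9.37, 7.33, 12.9, 9.75 and 10.1 untreated and 8.81, 8.30, 7.29, 11 and 10.5 resistant. The gene was above the filter limit in untreated A498 tumours and below it everywhere else. It was tested only because of the untreated A498 tumours, so its fitted fall of 3.19 ± 0.24 in A498 and its difference between lines of -3.15 ± 0.33 are given as a description, and no response could be measured in 786-O. With a pseudocount of 64 the CRYBB3 difference was -1.94. SLC2A2, the low-affinity glucose transporter GLUT2 of proximal tubule, liver and islet, read 1628, 269, 515 and 619 in untreated and 6.34, 28.4, 22.1, 123 and 313 in resistant A498 tumours. In 786-O it read 2.69, 5.70, 3.46, 7.66 and 6.94 untreated and 5.85, 1.59, 5.93, 2.30 and 4.39 resistant, far below the limit. Resistant A498 replicates 4 and 5 stayed above the filter limit, and replicate 5 overlapped the untreated range. No other sorafenib-arm tumour outside the untreated A498 group passed that limit, and the filter asked for at least 4 arrays. Within these arms, SLC2A2 therefore passed the filter only through the untreated A498 tumours. Its fitted fall of 3.16 ± 0.53 in A498 and its difference of -3.07 ± 0.73 are given as a description, and no response could be measured in 786-O. SLC39A5, a zinc transporter, fell by 1.88 ± 0.36, and GLYAT, glycine N-acyltransferase, by 1.89 ± 0.31 in A498, and both were dim in 786-O. TFPI2, a Kunitz protease inhibitor that was bright in all groups, fell by 0.93 ± 0.18 in A498 with some overlap, and its 786-O change of 0.46 ± 0.17 was not called. Under median centring and quantile normalisation that change was called (0.55 and 0.53, adjusted p = 0.0342 and 0.0210), which put TFPI2 in the opposite class. Its difference was -1.39 ± 0.25 (limma adjusted p = 0.00188), and -2.16 without probe sets that may bind several transcripts.

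The named genes that rose in A498 only included FEZ1, BMPR1B, ROBO1, C4BPA and FDCSP. FEZ1, a kinesin adaptor of axons, read 54.8, 61.0, 101 and 81.5 in untreated and 309, 472, 329, 415 and 269 in resistant A498 tumours. Signals in 786-O were 92.4, 51.5, 86.9, 107 and 112 untreated and 43.6, 51.9, 36.9, 50.5 and 63.2 resistant. All resistant A498 tumours were above all untreated ones, and the 786-O tumours stayed near or below the filter limit. FEZ1 rose by 2.05 ± 0.26 in A498 (limma adjusted p = 4.78e-05), with a difference of 2.73 ± 0.36 (limma adjusted p = 0.000111). BMPR1B, a type I receptor for bone morphogenetic proteins, read 4.32, 64.1, 64.4 and 105 in untreated and 149.8, 131, 326, 338 and 214 in resistant A498 tumours. The 786-O tumours read 350.7, 472, 475, 419 and 617 untreated and 234, 277, 130.3, 173 and 359.9 resistant. Resistant tumours of both lines met in the same range, from below in A498 and from above in 786-O. BMPR1B rose by 1.88 ± 0.39 in A498, its change in 786-O of -0.997 ± 0.37 was not called (limma adjusted p = 0.0676), and the difference was 2.88 ± 0.53 (limma adjusted p = 0.00240), or 1.48 (adjusted p = 0.0232) with the mean of its probe sets.

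ROBO1, a receptor for SLIT guidance cues, rose by 0.94 ± 0.17 in A498 against -0.30 ± 0.16 in 786-O, a difference of 1.25 ± 0.24 (limma adjusted p = 0.00294). The neuronal and neuroendocrine list had 26 tested genes, with 19 more below the filter. Among those tested, 5 rose and 1 fell in A498, beside 2.93% and 3.4% of all genes. In 786-O, 4 rose and 5 fell, beside 5.97% and 9.18% of all genes. The called differences of the list were 5 positive and 0 negative, beside 3.02% and 2.17% of all genes. Under median centring 2 were positive. ROBO1 was the 1 of the 5 positive ones called in A498 only, while 3 were called down in 786-O only and 1 up in both lines. C4BPA, a chain of the inhibitor C4b-binding protein, rose by 1.62 ± 0.40 in A498 with a difference of 2.27 ± 0.55 (limma adjusted p = 0.0172). FDCSP, a small secreted peptide, had signals of 28.1, 36.0, 49.2 and 46.8 in untreated and 371, 797, 45.3, 121 and 996 in resistant A498 tumours. Its fitted rise of 2.47 ± 0.57 was spread widely, with resistant replicate 3 inside the untreated range. FDCSP was tested only because of the other resistant A498 tumours. Its rise and its difference of 2.82 ± 0.79 are therefore given as a description. Without 1 of those tumours the gene fell below the filter, so its call was not tested there. The call of the FDCSP difference was also lost when any 1 of 9 other arrays was left out. Of the genes called in neither line, CCL5, a chemokine, had a difference of 3.14 ± 0.75 and IGFBP2, an insulin-like growth factor binding protein, one of 3.16 ± 0.77 (limma adjusted p = 0.0153 and 0.0177). Both leaned up in A498 and down in 786-O, and the groups of both genes overlapped in both lines. With the mean of its probe sets, the CCL5 difference was 0.93 (adjusted p = 0.290), and with a pseudocount of 64 it was 1.91.

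**Figure D2:**
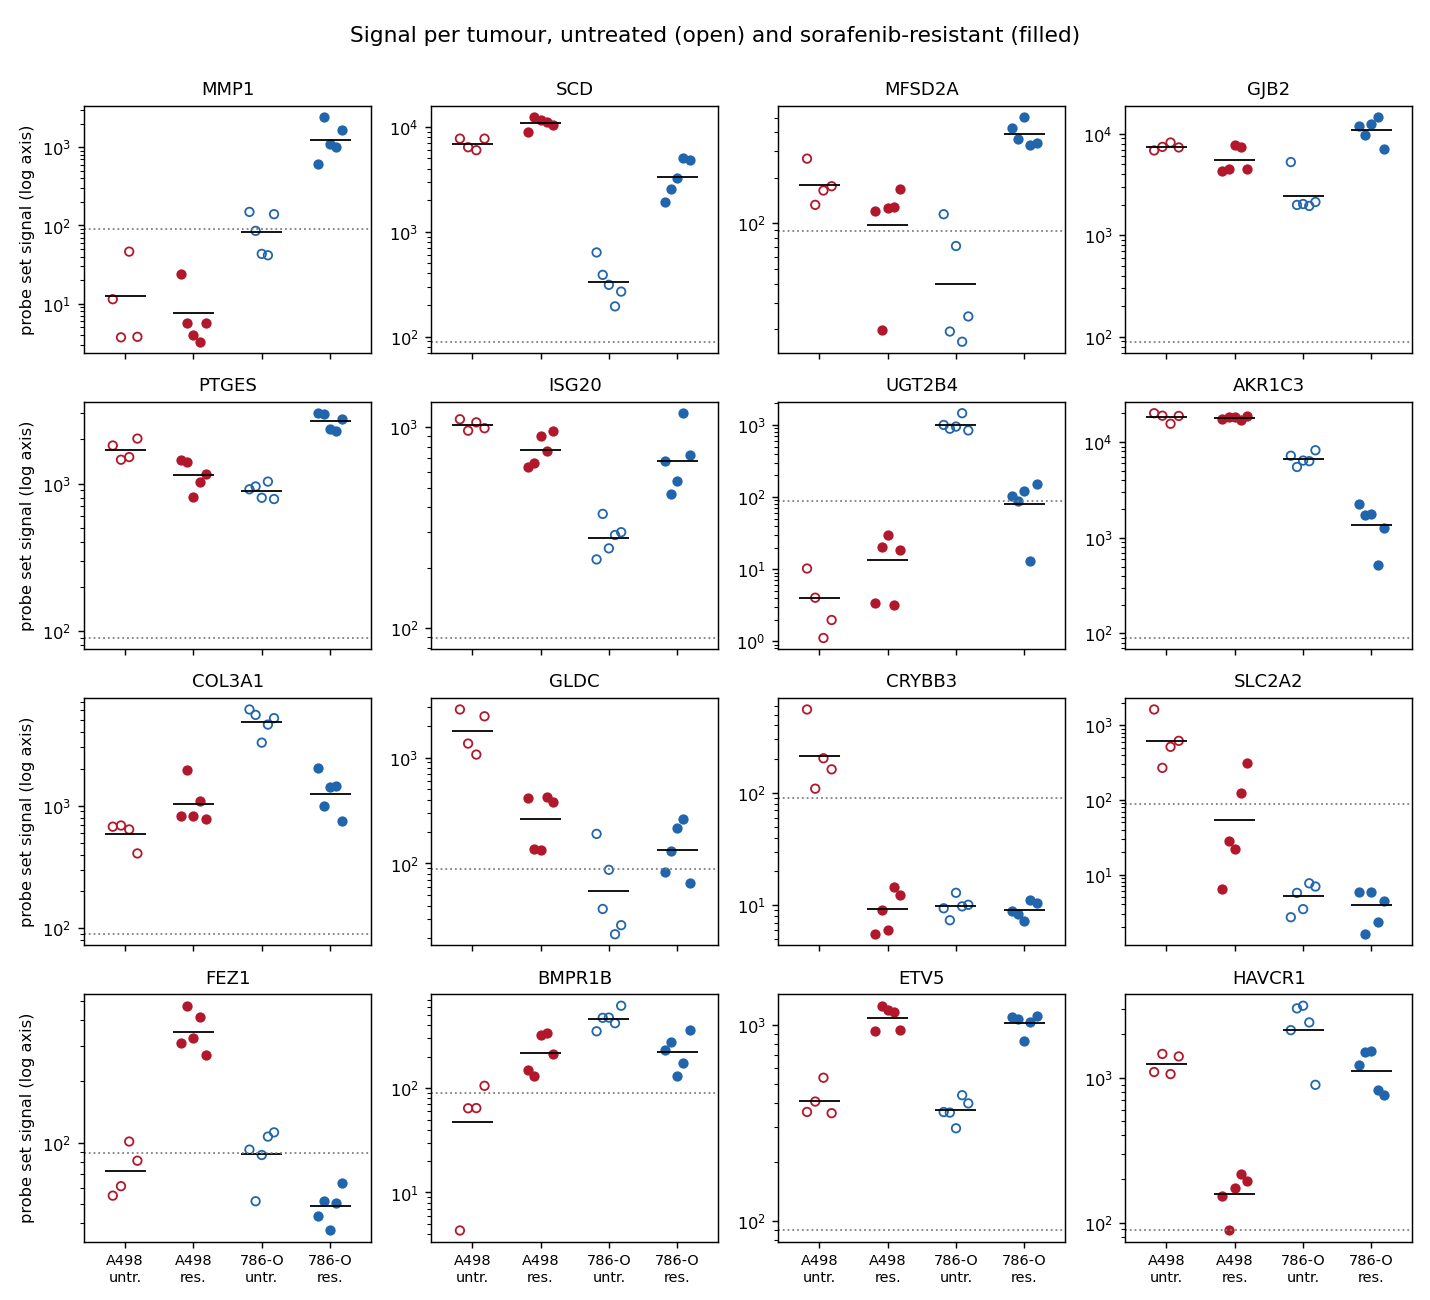
Probe set signal (log axis) of 16 genes in each of the 19 tumours, A498 in red and 786-O in blue, untreated open and resistant filled. Horizontal bars are group means on the log2(signal + 16) scale and the dotted line is the filter limit of 89.4. MMP1, SCD and PTGES separate the 786-O groups upwards, UGT2B4, AKR1C3 and COL3A1 separate them downwards, CRYBB3 and GLDC separate the A498 groups downwards, FEZ1 separates them upwards, and ETV5 separates both lines upwards.

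In the opposite class, 15 genes rose in A498 and fell in 786-O and 9 did the reverse. The class depended on single arrays. It held 15 genes without 786-O untreated replicate 1, 786-O untreated replicate 2, 786-O resistant replicate 5, or A498 resistant replicate 3, 4 or 5. It held 13 without 786-O untreated replicate 4 or A498 untreated replicate 1, and 12 without A498 untreated replicate 4. Under median centring it held 2 of the first kind and 31 of the second.

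EVC, a protein of the primary cilium, read 197, 199, 102 and 227 in untreated and 259.9, 312, 410.3, 473 and 293 in resistant A498 tumours. The 786-O tumours read 1514, 1569.8, 2222, 1236 and 1421 untreated and 860.0, 956, 614, 772 and 803 resistant. The groups of each line were apart, in opposite order. EVC rose by 0.91 ± 0.23 in A498 and fell by 0.96 ± 0.22 in 786-O (limma adjusted p = 0.0196 and 0.00352), and this opposite call also held under median centring and quantile normalisation. The EVC difference of 1.87 ± 0.32 was 0.95 (adjusted p = 0.0999) with the mean of its probe sets. CELF2, an RNA-binding splicing regulator, rose by 1.23 ± 0.36 in A498, where resistant replicate 2 read 2112, and fell by 1.14 ± 0.34 in 786-O. Its difference was 2.38 ± 0.50 (limma adjusted p = 0.00681), but 1.03 (adjusted p = 0.216) without probe sets that may bind several transcripts. COL5A1, a fibrillar collagen chain, rose by 1.19 ± 0.34 in A498 and fell by 1.02 ± 0.32 in 786-O, where it was mostly below the filter limit, and its difference was 1.35 (adjusted p = 0.272) without probe sets that may bind several transcripts. CREB3L1, a transcription factor of collagen secretion, rose by 0.91 ± 0.26 and fell by 0.93 ± 0.25. BCL2L11 encodes BIM, a killer protein of the BCL2 family that ERK keeps low. Its mean signal went from 849 to 1434 in A498 and from 1495 to 1127 in 786-O, a difference of 1.16 ± 0.16 (limma adjusted p = 0.000218). BCL2L11 lies outside the naming rule and was chosen after its values were seen. Under median centring, CELF2 and CREB3L1 were called in 786-O only, BCL2L11 in A498 only, and COL5A1 in neither line, each with its difference still called.

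In the reverse direction, TAP1, the peptide transporter of MHC class I loading, read 1113, 1028, 982 and 963 in untreated and 794, 809, 877, 533 and 759 in resistant A498 tumours. The 786-O tumours read 1439, 1452, 1513, 1268 and 1462 untreated and 2279, 1676, 1824, 3006 and 2008 resistant. Neither line's groups overlapped. TAP1 fell by 0.45 ± 0.14 in A498 and rose by 0.56 ± 0.13 in 786-O, and the difference was -1.01 ± 0.19 (limma adjusted p = 0.00232). Under quantile normalisation the A498 fall of TAP1 missed the threshold (-0.44, adjusted p = 0.0566), which left it called in 786-O only. PLAU, urokinase, read 151, 177, 171 and 229 in untreated and 146, 71.3, 109.7, 122 and 88.3 in resistant A498 tumours. In 786-O it read 1431, 1149, 1476, 1653 and 1861 untreated and 2466, 2387, 1763, 2429 and 2264 resistant, at a higher level throughout. The A498 groups were apart, and the 786-O groups overlapped through resistant replicate 3. PLAU fell by 0.70 ± 0.18 in A498 and rose by 0.58 ± 0.17 in 786-O, and its receptor PLAUR rose by 1.41 ± 0.14 in 786-O only, although without probe sets that may bind several transcripts the PLAUR difference was -0.75 (adjusted p = 0.149). MLKL, the effector of necroptosis, fell by 0.53 ± 0.12 in A498 and rose by 0.36 ± 0.11 in 786-O. SLITRK2, a synaptic adhesion protein dim in A498, fell by 0.99 ± 0.21 and rose by 0.61 ± 0.20, a difference of -1.60 ± 0.29 that was -0.97 with a pseudocount of 64. SLC35F2, a solute carrier, fell by 0.49 ± 0.13 and rose by 0.51 ± 0.12.

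**Figure D3:**
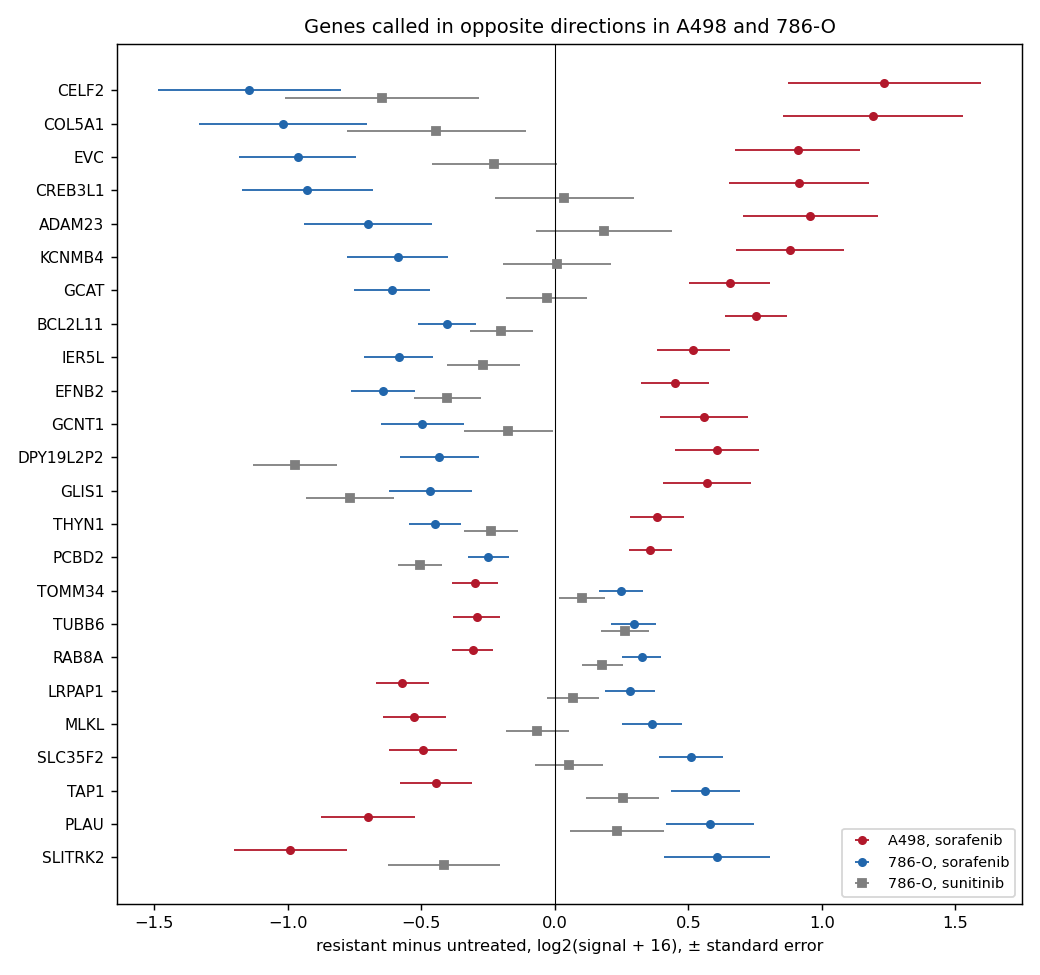
Resistant minus untreated with standard errors, log2(signal + 16), for the 24 genes called in opposite directions in A498 (red circles) and 786-O (blue circles) with sorafenib, with the 786-O sunitinib arm as grey squares. The sunitinib squares lie on the same side of 0 as the 786-O sorafenib circles for 19 of the 24 genes.

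Some genes moved the same way in both lines by unequal amounts. TMEM158, a membrane protein induced by RAS signalling, read 429, 591, 547 and 575 in untreated and 813, 1459, 1283, 1378 and 998 in resistant A498 tumours. Signals in 786-O were 178, 275, 261, 268 and 273 untreated and 1531, 3051, 2483, 1507 and 2307 resistant. Both lines separated fully, and 786-O went from below A498 to above it. TMEM158 rose by 1.10 ± 0.22 in A498 and 3.00 ± 0.21 in 786-O, a difference of -1.90 ± 0.30 (limma adjusted p = 0.000766). SLCO4A1, an organic anion transporter, rose by 1.15 ± 0.25 in A498 and 3.05 ± 0.24 in 786-O, where its mean signal went from 1214 to 10170. Its difference of -1.90 ± 0.35 was -1.16 (adjusted p = 0.0271) with the mean of its probe sets. ARG2, mitochondrial arginase, and PHLDA1, a pleckstrin-related protein of ERK output, rose by 0.96 ± 0.29 and 0.71 ± 0.21 in A498 and by 2.34 ± 0.27 and 1.90 ± 0.20 in 786-O. Under median centring both were called in 786-O only, with A498 changes of 0.87 (adjusted p = 0.0733) and 0.62 (adjusted p = 0.105), and ARG2 also under quantile normalisation (0.85, adjusted p = 0.0814). The PHLDA1 difference of -1.19 ± 0.29 was -0.78 (adjusted p = 0.0355) with the mean of its probe sets. The call of the ARG2 difference ended without any 1 of 14 arrays (adjusted p up to 0.0919). HAVCR1, or KIM-1, a marker of injured proximal tubule, read 1099, 1466, 1063 and 1409 in untreated and 152, 88.2, 173, 216 and 194 in resistant A498 tumours. In 786-O it read 2139.6, 3025, 3157, 2419 and 896 untreated and 1223, 1517, 1531, 821 and 758 resistant. Resistant A498 tumours lay far below untreated ones, while the 786-O groups overlapped through untreated replicate 5. HAVCR1 fell by 2.85 ± 0.29 in A498 and 0.92 ± 0.27 in 786-O, a difference of -1.93 ± 0.40 (limma adjusted p = 0.00609). HTRA1, a secreted serine protease, rose by 1.29 ± 0.12 in A498 and 0.37 ± 0.11 in 786-O, from levels that were lower in A498. The class of unequal size held between 4 and 7 genes without A498 untreated replicate 1 (4), 786-O untreated replicate 4 (5), or 786-O untreated replicate 3, 786-O resistant replicates 1 or 5 or A498 resistant replicate 3 (7 each).

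A shared response was read from the interval of the difference, not from a missed threshold. Of the 255 genes called the same way in both lines, 201 had a 95% interval of the difference within 1 on either side of 0, 82 up and 119 down. Without A498 untreated replicate 1 there were 125. ETV5, an ETS factor of the ERK pathway, read 359, 406, 536 and 354 in untreated and 926, 1248, 1186, 1166 and 935 in resistant A498 tumours. Signals in 786-O were 359, 356, 296, 437 and 397 untreated and 1097, 1067, 821, 1025 and 1108 resistant. In both lines all resistant tumours lay above all untreated ones, over similar ranges, and the rises were 1.38 ± 0.16 and 1.44 ± 0.15. Their difference of -0.06 ± 0.22 came from 1 probe set that may bind several transcripts, and without such probe sets it was -1.42 (adjusted p = 0.211), outside the bound of 1. ETV1, its relative, rose by 1.43 ± 0.32 in A498 and 1.45 ± 0.30 in 786-O, whereas ETV4, the remaining member, rose by 1.74 ± 0.39 in A498 and was dim in 786-O. The ETV4 difference of 1.84 ± 0.54 lost its call without any 1 of 14 arrays (adjusted p up to 0.108). HMGA2, an architectural chromatin protein, rose by 1.39 ± 0.23 and 1.47 ± 0.21. IL6, the cytokine, rose by 1.27 ± 0.29 and 1.20 ± 0.27, and PTX3, a secreted pentraxin, by 1.57 ± 0.33 and 1.54 ± 0.31. Among the falls, KMO, kynurenine monooxygenase, fell by 1.53 ± 0.19 in A498 and 1.06 ± 0.17 in 786-O. TSPAN12, a tetraspanin, fell by 1.32 ± 0.20 and 1.47 ± 0.19. BHMT2, a methyltransferase of methionine synthesis, fell by 1.09 ± 0.18 and 1.11 ± 0.17, LRRN4 by 1.15 ± 0.20 and 1.08 ± 0.19, and the histone gene H2BC5 by 1.12 ± 0.24 and 1.37 ± 0.22. For KMO the difference was called without 786-O resistant replicate 4 (-0.70, adjusted p = 0.031).

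Gene lists were read against all genes tested, of which 5.19% had a called difference, 3.02% positive and 2.17% negative. The ERK output list had 25 tested members. Of these, 17 rose and 1 fell in 786-O, where 5.97% of all genes rose, and 7 rose and 1 fell in A498, where 2.93% did. The difference was called for 10 members, 8 negative and 2 positive, and the list's median was -0.66 beside 0.07 over all genes. Leaving out A498 untreated replicate 1, or A498 resistant replicate 4, gave 5 negative calls, as did leaving out the 2 arrays of high ACTB difference, and under median centring there were 12 and no positive ones. DUSP5, a nuclear ERK phosphatase, read 215, 152, 241, 248 and 266 in untreated and 717, 1104, 823, 909 and 1128 in resistant 786-O tumours. A498 tumours read 326, 413, 529 and 528 untreated and 986, 904, 494, 559.6 and 515 resistant, with overlap. The 786-O rise of 1.99 ± 0.20 left a difference of -1.42 ± 0.30 (limma adjusted p = 0.00681). FOSL1, the AP-1 subunit FRA1, rose by 0.85 ± 0.21 in A498 and 1.95 ± 0.20 in 786-O, a difference of -1.09 ± 0.29. The FOSL1 call ended without A498 untreated replicate 1 (-0.94, adjusted p = 0.0724), A498 resistant replicate 4 (-1.02, adjusted p = 0.0525) or 786-O untreated replicate 5 (-1.04, adjusted p = 0.0508). CCND1, cyclin D1, was chosen after its values were seen and had a difference of -0.75 ± 0.17, with a rise of 0.99 ± 0.12 in 786-O. DUSP6, the cytoplasmic ERK phosphatase, rose in both lines, by 0.60 ± 0.17 and 1.33 ± 0.16, and its difference of -0.73 ± 0.24 missed the threshold (limma adjusted p = 0.0723), which it passed under 9 alternatives, among them the mean of its probe sets (-0.96, adjusted p = 0.0222) and median centring (-0.92, adjusted p = 0.0194). SPRY4, a Sprouty inhibitor, stood at 0.44 ± 0.24 in A498 and 0.43 ± 0.22 in 786-O, with neither called.

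Of 42 interferon-stimulated genes tested, 10 had a negative and 0 a positive called difference (23.8%). In 786-O, 21 rose and 0 fell, beside 5.97% and 9.18% of all genes. In A498, 0 rose and 1 fell, beside 2.93% and 3.4%. The list's median response was 0.53 in 786-O and -0.07 in A498, and its median difference was -0.53. Leaving out 786-O resistant replicate 4 gave 13 rises in 786-O, and leaving out both arrays of high ACTB difference gave 12. The calls in the difference ranged from 8 to 13 over the arrays left out in turn, and numbered 17 under median centring.

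The promoters of this list were searched for the core of the interferon-stimulated response element, the site bound by the ISGF3 complex of STAT and IRF9 proteins. The letters GAAANNGAAA were looked for on both strands in the 250 bases before each RefSeq start (GRCh38.p14). They were found in 3.02% of 35116 promoters, in 3.48% of the 11113 genes tested with a promoter, in 24 of the 33 list members tested with a promoter (72.7%) and in 6 of the 8 that also had a called difference. These 6 are shown with 20 bases on each side of the match nearest the start where the window allows, the match in capitals and each read 5′ to 3′ on the strand of the gene.
ISG15, at chr1:1013370-1013419, plus strand: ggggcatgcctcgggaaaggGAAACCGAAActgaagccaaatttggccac
ISG20, at chr15:88638927-88638976, plus strand: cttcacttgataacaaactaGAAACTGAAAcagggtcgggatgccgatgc
IFIH1, at chr2:162318685-162318725, minus strand: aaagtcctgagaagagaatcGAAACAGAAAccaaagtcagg
PARP14, at chr3:122680790-122680838, plus strand: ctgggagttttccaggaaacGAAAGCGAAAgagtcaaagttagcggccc
PARP9, at chr3:122564312-122564361, minus strand: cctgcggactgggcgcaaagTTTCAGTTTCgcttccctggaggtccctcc
IFIT3, at chr10:89327855-89327904, plus strand: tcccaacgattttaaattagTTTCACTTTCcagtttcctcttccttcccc
In PARP9 and IFIT3 the match lies on the opposite strand, so the reverse complement of the motif is in capitals. A match describes the letters and is no measured site.

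ISG20, an exonuclease against RNA viruses, had the most negative difference of the list. It read 219.8, 370.2, 249, 291 and 300.2 in untreated and 677, 465, 540.0, 1173 and 729 in resistant 786-O tumours. A498 tumours read 1094, 960.3, 1056 and 988 untreated and 636, 664, 899, 764 and 955 resistant. In 786-O the resistant tumours were wholly higher, in A498 wholly lower, though the A498 change of -0.40 ± 0.19 was not called (limma adjusted p = 0.241). ISG20 rose by 1.23 ± 0.18 in 786-O, and the difference was -1.62 ± 0.27 (limma adjusted p = 0.000904). OAS1, a sensor of double-stranded RNA, rose by 0.86 ± 0.15 in 786-O against -0.32 ± 0.16 in A498, and USP18, which removes ISG15 from proteins, by 0.60 ± 0.20 against -0.63 ± 0.22. The A498 change of USP18 was called under median centring (-0.72, adjusted p = 0.0356), which put it in the opposite class, and neither line's change was called under quantile normalisation. The others were chosen after their values were seen. ISG15, a ubiquitin-like modifier, rose by 1.04 ± 0.16 in 786-O with 0.15 ± 0.17 in A498, a difference of -0.88 ± 0.24. IFIH1, the RNA sensor MDA5, rose by 0.62 ± 0.16 with -0.34 ± 0.16 in A498. IFIT3, a paralog-rich antiviral protein, rose by 0.89 ± 0.16 with -0.07 ± 0.17 in A498. PARP14, an ADP-ribosyltransferase, rose by 0.69 ± 0.12 with -0.18 ± 0.13 in A498, and PARP9, its neighbour, stood at 0.29 ± 0.12 in 786-O and -0.37 ± 0.12 in A498 with neither called. In the MHC class I list, 3 of 20 had a negative and 0 a positive difference. TAP1 is described above, and HLA-E, a non-classical class I molecule whose probes may bind related HLA genes, rose by 0.67 ± 0.12 in 786-O with -0.08 ± 0.12 in A498. The third, TAPBP, had a difference of -0.52 ± 0.14 (limma adjusted p = 0.0348), which was -0.03 (adjusted p = 0.964) with the mean of its probe sets. Its call also ended without any 1 of 11 arrays (adjusted p up to 0.069). The MHC count was 5 without 786-O resistant replicate 2 or A498 untreated replicate 3, and 7 under median centring. It was 2 without 786-O untreated replicate 4 and without the 2 arrays of high ACTB difference.

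In the hypoxia and HIF list, 7 of 31 had a negative and 0 a positive called difference, with a median of -0.22. There were 3 negative calls without the 2 arrays of high ACTB difference. EPAS1, HIF-2 alpha itself, read 4334, 4505, 4175, 4076 and 4067 in untreated and 8235, 7198, 7706, 8667 and 7925 in resistant 786-O tumours. In A498 it read 11098, 9757, 9593 and 8930.1 untreated and 8728, 13797, 12448, 10416 and 10275 resistant. The 786-O groups were apart and the A498 groups mixed at a higher level. EPAS1 rose by 0.90 ± 0.11 in 786-O, with a difference of -0.74 ± 0.16 (limma adjusted p = 0.00858), which was -0.11 (adjusted p = 0.870) when the gene's probe sets were averaged. BHLHE40, a clock repressor, rose by 0.84 ± 0.16 in 786-O and HK2, hexokinase 2, by 0.79 ± 0.25, against -0.11 ± 0.17 and -0.64 ± 0.26 in A498. The HK2 difference of -1.43 ± 0.36 was -0.65 (adjusted p = 0.323) with the mean of its probe sets. Its call also ended with pooled untreated 786-O tumours (-1.16, adjusted p = 0.0608), without the 2 arrays of high ACTB difference (-1.19, adjusted p = 0.0561) and without A498 untreated replicate 1 (-1.24, adjusted p = 0.0567). VEGFA, the main angiogenic growth factor, read 13362, 14988, 12245 and 12949 in untreated and 15513, 20295, 15911, 15805 and 15365 in resistant A498 tumours. In 786-O it read 18483, 16613, 13508, 14979.9 and 16704 untreated and 22588, 17953, 18917, 23069 and 20046 resistant. All resistant A498 tumours were above the untreated ones, and the 786-O groups overlapped slightly. VEGFA stood at 0.30 ± 0.11 in A498 (limma adjusted p = 0.0894) and rose by 0.35 ± 0.10 in 786-O, and the 95% interval of the difference ran from -0.35 to 0.25. In the list of angiogenic factors and neuropilins, 6 of 18 differences were called negative and 0 positive. ANGPTL4 and ADM count in both this list and the hypoxia list, and CCND1 in both the hypoxia and ERK output lists. NRP2 and NRP1, co-receptors for VEGF and semaphorins, rose by 1.29 ± 0.15 and 0.97 ± 0.16 in 786-O, with -0.11 ± 0.16 and 0.01 ± 0.17 in A498.

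In lipid lists, the fatty acid list had 4 negative and 1 positive called difference among 24, and the cholesterol list 1 negative among 19. The positive one was CD36, a fatty acid and thrombospondin receptor, which fell by 1.48 ± 0.31 in 786-O and was near the filter limit in A498. The CD36 difference of 1.96 ± 0.45 was 1.20 (adjusted p = 0.159) without probe sets that may bind several transcripts. In 786-O, 11 of the 19 cholesterol genes rose, against 0 in A498, beside 5.97% and 2.93% of all genes. MSMO1, a sterol oxidase, had the 1 called difference (-0.97 ± 0.19, limma adjusted p = 0.00467). Under median centring 4 of the 19 differences were called, all negative, so for most of these genes a difference between lines was not shown. The 786-O rises numbered 6 without the 2 arrays of high ACTB difference. Of 39 proximal tubule genes, 12 fell and 1 rose in A498 and 14 fell and 0 rose in 786-O, beside 3.4% and 9.18% of all genes, with medians of -0.67 and -0.42 and a median difference of -0.16. Only 5 differences were called there, UGT2B4, ACSM2A, SLC3A1 and GATM above 0 and GLYAT below it, and SLC3A1 and GATM were named after their values were seen. The negative ones numbered 5 under median centring, 4 without A498 resistant replicate 5, and 2 without 786-O untreated replicate 5 or A498 untreated replicate 3. In the cell cycle list 0 of 40 differences were called. MKI67, a proliferation marker, stood at 0.04 ± 0.19 in A498 and 0.03 ± 0.18 in 786-O. In oxidative phosphorylation 0 of 31 differences were called by limma. Of the 31 genes, 10 fell in 786-O and 1 in A498, beside 9.18% and 3.4% of all genes. The 786-O number was 6 without untreated replicate 4 and 5 without untreated replicate 5. MET and AXL, receptor kinases studied in drug resistance, had differences of 0.03 ± 0.15 and -0.14 ± 0.25, neither called. CXCL8, a chemokine, and CDKN1A, the cell cycle inhibitor p21, had differences of -0.14 ± 0.49 and 0.42 ± 0.20, neither called.

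**Figure D4:**
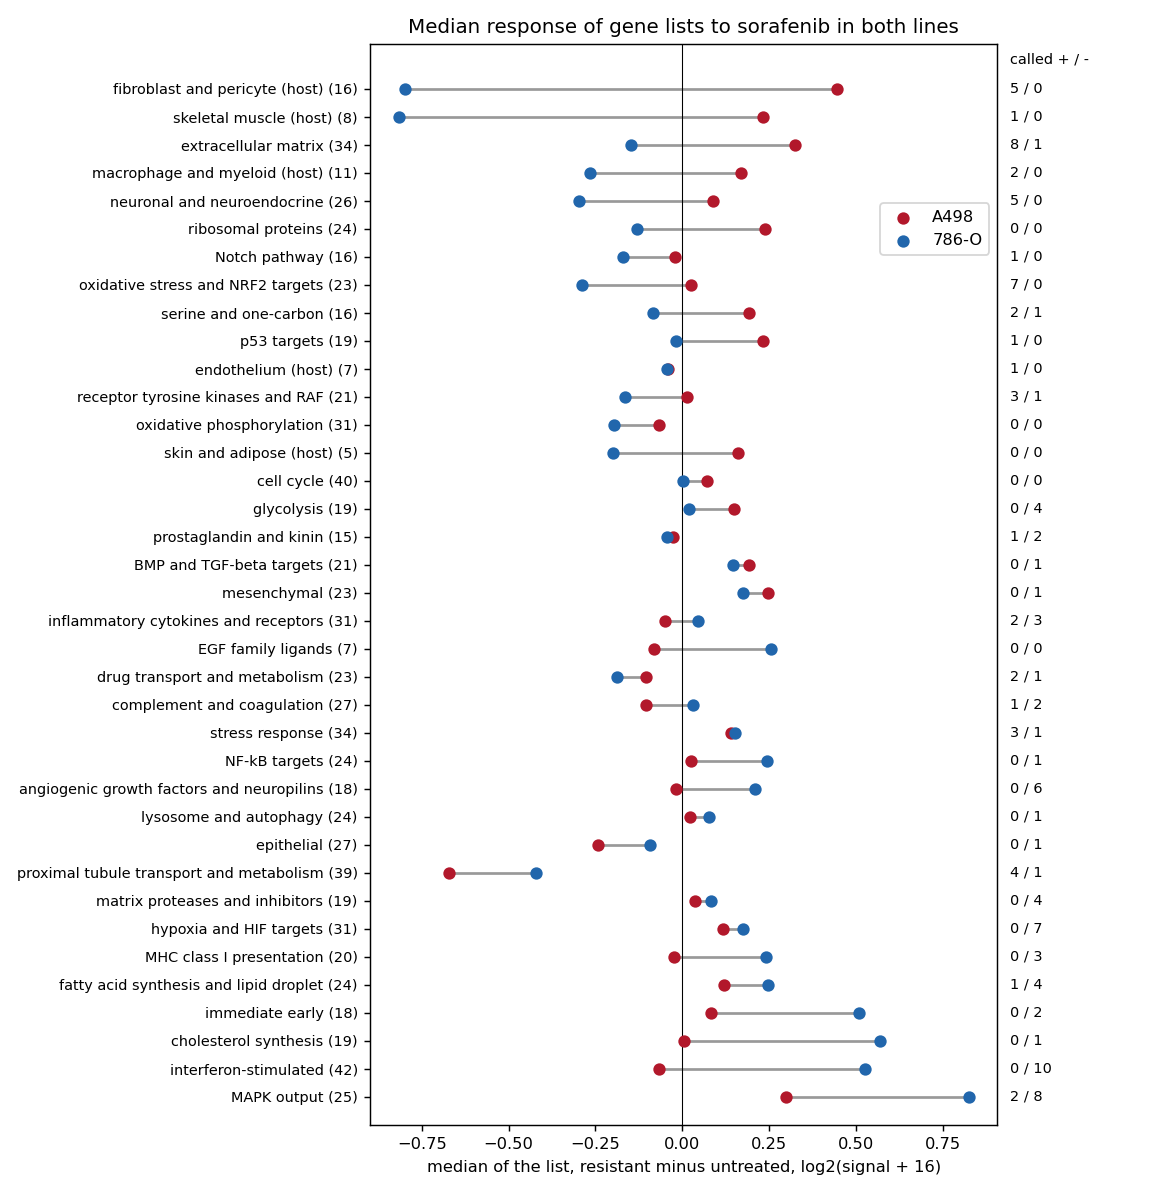
Median response of each gene list with at least 5 tested members, resistant minus untreated on the log2(signal + 16) scale, in A498 (red) and 786-O (blue), ordered by the list's median difference. The number tested is in parentheses and the called positive and negative differences stand at the right. The ERK output (MAPK output) and interferon-stimulated lists lie further right in 786-O, and the fibroblast list lies left in 786-O and right in A498.

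The fibroblast and pericyte markers had the largest median difference of the lists with at least 5 genes tested. Of 34 extracellular matrix genes, 8 had a positive and 1 a negative called difference, beside 3.02% and 2.17% of all genes. Of 16 tested fibroblast and pericyte markers, 5 had a positive and 0 a negative one. COL1A1, COL1A2 and COL3A1 are on both lists, so their positive differences count in both. The medians were 0.46 and 1.10, and 0.28 and 0.92 under median centring. COL3A1, a fibrillar collagen, read 6104, 5512, 3273, 4596 and 5187 in untreated and 2033, 986, 1414, 1451 and 749 in resistant 786-O tumours. A498 tumours read 675, 689.7, 641 and 408 untreated and 828, 1955, 832, 1089 and 784 resistant. Both lines separated, downwards in 786-O and upwards in A498, where untreated replicate 4 was low and resistant replicate 2 high. COL3A1 fell by 1.93 ± 0.30 in 786-O (limma adjusted p = 6.96e-05), its A498 change of 0.78 ± 0.32 was not called (limma adjusted p = 0.149), and the difference was 2.72 ± 0.44 (limma adjusted p = 0.000838). COL1A2 and COL1A1, the chains of type I collagen, fell by 1.83 ± 0.27 and 1.64 ± 0.34 in 786-O, with differences of 2.31 ± 0.40 and 2.31 ± 0.50. With the mean of each gene's probe sets, the differences of COL3A1 and COL1A2 were 1.55 and 1.37 (adjusted p = 0.00231 and 0.00423). COL1A1 read between 4446 and 20424 in A498 against 153 to 1166 in 786-O. LAMB3, a basement membrane laminin chain, was the negative one, named after its values were seen, with a rise of 0.71 ± 0.19 in 786-O. Extracellular matrix falls in 786-O numbered 11 of 34, beside 9.18% of all genes. They numbered 6 without resistant replicate 4 and 7 without resistant replicate 5.

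The summed signal of the fibroblast list over its 22 markers on the array ran from 10425 to 18079 (median 13170) in untreated and from 5720 to 11547 (median 9362) in resistant 786-O tumours, and the ranges overlapped. In A498 it ran from 8389 to 17979 (median 15449) untreated and 12312 to 32947 (median 25871) resistant, also with overlap. LUM, FBLN2, PDGFRB, MYH11, CNN1 and CSPG4 were below the filter. In bulk tumours, fewer cells of a type and less RNA per cell cannot be told apart. In the macrophage list, 9 of 20 were below the filter, among them PTPRC, CD14 and C1QA. Of the 11 tested, 2 had a called positive difference, where 3.02% of all genes did. AIF1, a macrophage protein, had one of 3.34 ± 0.97 (limma adjusted p = 0.0446), whose call ended without any 1 of 13 arrays (adjusted p up to 0.105), and CYBB, the phagocyte oxidase, one of 1.73 ± 0.44 (limma adjusted p = 0.0230). With the mean of their probe sets the AIF1 and CYBB differences were 2.15 and 0.85, both called. Of 20 endothelial markers, 13 were below the filter, including CDH5, KDR and VWF. Beside the same 3.02%, the 7 tested had 1 called difference, of TIE1, a vascular receptor kinase. The TIE1 difference was 2.45 ± 0.58 (limma adjusted p = 0.0147), and 1.47 with a pseudocount of 64. Again beside 3.02%, the skeletal muscle list had 1 of 8, TPM2, a tropomyosin, at 1.28 ± 0.32. It was 0.29 (adjusted p = 0.811) without probe sets that may bind several transcripts, 0.70 (adjusted p = 0.104) with the mean of its probe sets and 1.20 (adjusted p = 0.05001) without A498 untreated replicate 1. Summed muscle markers ran from 1147 to 2815 in untreated and 803 to 1363 in resistant 786-O tumours, and from 6993 to 12388 and 7190 to 10738 in A498. The part of host cells in the collagen difference was not tested.

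The sunitinib arm of 786-O gave the response of the same genes to another kinase inhibitor. Its arrays entered the difference only through the spread, the choice of genes tested and the choice of probe sets. With only the 19 arrays, 13515 genes were tested and 633 differences were called. Of the 460 genes called in 786-O only, 381 (82.8%) had the sign of the 786-O sorafenib response with sunitinib, beside 61.5% of all genes. Of the same genes, 123 (26.7%) were called with that sign, beside 4.43% of all genes. In all, 5.06% of genes were called with sunitinib, 2.22% up and 2.84% down. For the 786-O calls whose difference between lines was not called, the share of equal sign was 83.3%, beside 82.6% where it was called. Of the 160 genes called in A498 only, 66 (41.2%) had the A498 sign with sunitinib in 786-O, beside 54.3% of all genes. Only 2 of the 160 were called with it, beside 3.38% of all genes. These 160 were selected for a response unlike that of 786-O with sorafenib. Among the 680 A498 calls whose difference between lines was not called, 491 (72.2%) had the A498 sign with sunitinib, and 69 were called with it. The sunitinib response was 1.60 for SCD, 1.33 for PTGES, 1.42 for GJB2, -2.01 for UGT2B4 and -1.54 for AKR1C3, each called and each of the sign seen with sorafenib. It was 0.17 for MFSD2A, 0.04 for G0S2, 0.00 for NRP2 and -0.00 for NRP1, none called, although each had risen with sorafenib. Doses, arms and untreated controls differed between the drugs, so the values are given side by side. The leading title code differed too, as the sunitinib titles carry the code of A498, so drug and code cannot be told apart in 786-O. Pooling the untreated 786-O tumours of both arms, used as an alternative, likewise joins both codes.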

How the data were processed

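Frozen tumours of 2 renal carcinoma lines grown in mice were measured on human Affymetrix HG-U133 Plus 2.0 arrays. The deposited values are linear probe set intensity values. RMA and MAS5 appear in the submitters' processing notes, with no role given, and the values have the form that MAS5 scaling gives (equal 2% trimmed means on a linear scale), so the authors' exact steps are not given in the sources used here. No depth applies to arrays, and their number limits the precision.

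Of 54675 probe sets, 41091 had 1 symbol, 1801 several and 11721 none, and 62 were controls. The probe set of highest mean stood for each of 19775 genes, and 13808 genes above the median of all values (signal 89.4) on at least 4 arrays were tested. Values were taken as log2(signal + 16) and fitted in limma 3.58.1 (R 4.3.3) with 6 groups over 28 arrays, with Benjamini-Hochberg adjustment and a call at an adjusted p under 0.05. Figures used matplotlib 3.10.9. Tested on simulated shifts, the fit recovered 12% of 50 genes shifted by 0.5 in the difference between lines, 70% of those shifted by 1, 88% by 1.5 and 92% by 2, with 2 false calls among 13808 genes.

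Alternatives changed the pseudocount, filter, probe sets, scaling, arrays in the fit, controls, weights, variance prior, RNA quality terms and single arrays. The members, gene lists and tests were chosen with earlier results of these data known. Named were the 10 largest called differences each way, the 5 largest of each class, up to 3 called members of each list, the 5 leading shared rises and falls and 12 set genes. Other genes named were chosen after their values were seen. Motifs were read from RefSeq promoters (GRCh38.p14).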

Additional observations from a re-analysis of the deposited data

Results flagged for a closer look

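The response differed between A498 and 786-O by the limma test of the difference itself for 716 genes. Among the genes called in opposite directions, the named ones had differences of 2.38 for CELF2, 2.21 for COL5A1, 1.87 for EVC, 1.84 for CREB3L1 and 1.66 for ADAM23, which were higher in resistant A498 and lower in resistant 786-O tumours. The reverse held for SLITRK2 (-1.60), PLAU (-1.28), TAP1 (-1.01), SLC35F2 (-1.003) and MLKL (-0.89). Each of these 10 kept a called difference under median centring, although the call within 1 or both lines was lost for CELF2, COL5A1, CREB3L1 and ADAM23. Under quantile normalisation a line call was lost for COL5A1, CREB3L1, ADAM23 and TAP1. ADAM23 was dim in A498, with mean signals of 36.3 untreated and 79.9 resistant, and its 786-O groups overlapped. The ADAM23 difference was 0.998 with a pseudocount of 64.

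A sample stood far from the others of its group in 21 of 236 groups of values by Dixon's 95% criterion, and chance alone flags about 1 in 20 groups. In the sentences that follow, the first value is that sample's log2 value and the second is the nearest other value of its group.

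Among untreated A498 tumours, COL3A1 was low in replicate 4 (8.73 against 9.36), as was the mean of the fibroblast list (7.83 against 7.92). The ribosomal protein mean was low in replicate 3 (14.19 against 14.52) and the angiogenic factor mean in replicate 1 (9.71 against 9.80). Among resistant A498 tumours, MFSD2A (5.16 against 7.10) and THBS4 (7.78 against 9.16) were low in replicate 2, where the hypoxia mean was high (12.06 against 11.88). MMP1 was high in replicate 1 (5.32 against 4.44) at a dim level. The drug transport mean (9.52 against 9.74) and the macrophage mean (7.33 against 7.99) were low in replicate 3.

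Among untreated 786-O tumours, replicate 1 was high in GJB2 (12.37 against 11.07) and in the lysosome mean (11.32 against 11.16), and low in IGFBP2 (4.46 against 6.89), the interferon-stimulated mean (9.62 against 9.90) and the Notch mean (8.54 against 8.68). Replicate 5 was high in TNFSF15 (6.34 against 5.05) and in the ACTB 3-prime minus 5-prime difference (1.03 against 0.397). The mesenchymal mean was low in replicate 3 (11.20 against 11.52). Among resistant 786-O tumours, UGT2B4 was low in replicate 4 (4.86 against 6.69), and the epithelial mean (8.90 against 8.71) and the complement mean (9.95 against 9.64) were high in replicate 3.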

How the results depend on the processing

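No paired analysis was possible because the replicate numbers only follow accession order. The alternatives left the called differences between 311 and 927 in number. They were 476 without probe sets that may bind several transcripts, 458 without the 2 arrays of high ACTB difference and 311 at a size of at least 1, and 505 to 751 without 1 array. Calls in A498 were 1316 with array weights, 160 at a size of at least 1 and 465 to 1020 without 1 array. In 786-O they were 1234 without the 2 ACTB arrays, 448 at a size of at least 1 and 1577 to 2206 without 1 array. Opposite responses numbered 9 without the filter, 15 with the mean of probe sets, 13 without ambiguous probe sets, 39 with array weights and 12 to 36 without 1 array. Genes called in 1 line with a called difference were 386 without the 2 ACTB arrays, 270 at a size of at least 1 and 429 to 635 without 1 array. Same-sign genes of unequal size were 18 (pseudocount 64), 6 (no filter), 19 (stricter filter), 7 (without ambiguous probe sets), 21 (array weights), 19 (trended robust variance), 7 (without the 2 ACTB arrays), 6 (size of at least 1) and 4 to 16 (without 1 array). Shared genes with a small difference were 125 to 234 without 1 array. The correlation across genes was 0.197 (pseudocount 1), 0.261 (pseudocount 64), 0.156 (no filter), 0.338 (stricter filter), 0.294 (measured in both lines), 0.247 (mean of probe sets), 0.237 (quantile), 0.259 (pooled untreated 786-O), 0.212 (GAPDH covariate) and 0.203 to 0.235 without 1 array. A sunitinib share was also taken over genes called in 786-O only or in opposite directions, without those called the same way in both lines. Of these, the share with the same sign in 786-O with both drugs was 84.3% (stricter filter), 84.5% (measured in both lines), 87.4% (mean of probe sets), 86.2% (median centring), 85.3% (array weights), 85.5% (without the 2 ACTB arrays) and 79.5 to 85.96% without 1 array. FGFR2 reversed to -0.27 without ambiguous probe sets. Calls of the difference also ended for G0S2, PHLDA1 and COL1A1 with pooled untreated 786-O tumours, BHLHE40 and IGFBP2 without the 2 ACTB arrays, NRP1 and TNFSF15 with the mean of probe sets, SLC2A2 with a pseudocount of 1 and ALDH1A1 with only the 19 arrays. Among named genes with a called difference, its size moved by over 1.5 times for 23 with the mean of probe sets, for 8 without ambiguous probe sets and for 8 with a pseudocount of 64, and for none under the other alternatives besides left-out arrays. Of 96 named genes with a called difference, 71 kept it in every fit without 1 array that measured them, and 48 under every alternative that measured them. Genes below the filter in such a fit, as CRYBB3 was without an untreated A498 tumour, were not counted as lost there. The same held for FDCSP in the fits without certain resistant A498 tumours. Removing arrays or genes lowers the number of samples or features; the cause of the other changes was not tested. Dim genes limit the size of a response, and a difference under 0.5 was rarely recovered in simulated data.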
